A study of Mus musculus with 96 samples.

Results

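The constitutive proteasome genes were followed in mouse bone marrow dendritic cells that had been given ligands of Toll-like receptors (TLRs). Members were genes with 1 annotated symbol beginning with Psma, Psmb, Psmc or Psmd, without the immune subunits Psmb8, Psmb9 and Psmb10, and with an intensity above the floor of 20 on at least 1 array. The rule took 33 genes out of 10543 items tested, of which 7741 were named genes. The rule itself uses no difference between groups, but the gene family was chosen with earlier results of these data known. Of the 33 members, 32 were above the floor on all 96 arrays: 7 of the alpha ring, 7 of the beta ring, 5 ATPases and 11 non-ATPase subunits of the 19S particle, and 2 chaperones of its assembly, Psmd5 and Psmd9. The other member, Psmc3ip, shares only the start of its symbol: it codes for a cofactor of meiotic recombination, and its intensity was 20.1 on 1 array and 20 on the others. Psma8, a testis form of an alpha subunit, was at 20 on all arrays and stayed outside the rule. Psmb11, Psmc6 and Psmd10 were not analysed here.

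The ligands are labelled Lps, Pic, Pam, Cpg and Grd. From knowledge of the study rather than from its labels, they stand for lipopolysaccharide (seen by TLR4), poly(I:C), an analogue of double-stranded RNA (TLR3), a lipopeptide made by synthesis (TLR2), oligonucleotides with CpG (TLR9) and the small molecule gardiquimod (TLR7). Each ligand was followed at 9 times from 0.5 to 24 h with 2 arrays a time, but for Cpg a lone array was given at 16 and at 24 h. The reference was 8 arrays of unstimulated cells, 1 each at 0, 1, 2, 4, 6, 8, 12 and 24 h. Times from 0.5 to 2 h were joined as early, those from 4 to 8 h as middle and those from 12 to 24 h as late, and each of these windows was set against all 8 unstimulated arrays. All groups were primary cells cultured from marrow, so each array holds a mixed culture. In such bulk RNA, fewer cells of a type and less RNA per cell cannot be told apart.

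The proteasome is the main machine that breaks down proteins tagged with ubiquitin. Its 20S core is a barrel of alpha rings, which form the gate, around beta rings, which hold the cutting sites. The 19S particle caps the barrel: its non-ATPase subunits bind and strip ubiquitin, and its ATPases unfold the substrate and thread it into the core. Psmb5, Psmb6 and Psmb7 code for the constitutive catalytic subunits, with chymotrypsin-like, caspase-like and trypsin-like activity. In antigen-presenting cells and under interferon, Psmb8, Psmb9 and Psmb10 code for subunits that take their places in newly built immunoproteasomes, which favour peptides suited to MHC class I. Subunit genes are known targets of Nfe2l1, which with small Maf proteins binds antioxidant response elements in their promoters.

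The 250 bases before the RefSeq start sites of Psmb6 and Psmb5 (GRCm38.p6) are shown because the calls of these catalytic subunits began in different windows of time and both stretches hold the core of an antioxidant response element, TGACNNNGC, given in capitals, 5′ to 3′ on the strand of the gene.
Psmb6, chr11:70525107-70525356, plus strand: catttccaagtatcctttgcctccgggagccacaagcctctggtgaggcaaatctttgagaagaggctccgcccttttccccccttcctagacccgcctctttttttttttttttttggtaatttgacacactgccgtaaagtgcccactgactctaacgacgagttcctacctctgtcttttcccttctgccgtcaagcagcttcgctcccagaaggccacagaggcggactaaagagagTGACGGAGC
Psmb5, chr14:54617996-54618245, minus strand: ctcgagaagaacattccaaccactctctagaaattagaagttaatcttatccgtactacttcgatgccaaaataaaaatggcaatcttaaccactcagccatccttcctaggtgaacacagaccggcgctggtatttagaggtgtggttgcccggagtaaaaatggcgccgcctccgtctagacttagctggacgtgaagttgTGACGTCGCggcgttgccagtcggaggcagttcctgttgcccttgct
Counted from 1 at the first base printed, the match began at base 242 in Psmb6, at the end of the window, and at base 204 in Psmb5. RefSeq windows were found for 27 of the 33 members, at 29 start sites. TGACNNNGC, searched on both strands, was found in 13.8% of the members' windows (Psmb5, Psmb6, Psmd9 and Psmd12) and in 10.2% of all 32851 windows of the same length. CCAAT, on both strands, was in 37.9% of the members' windows and in 33.8% of all windows. The core of the interferon-stimulated response element was in 10.3% of the members' windows (3 genes) and in 2.98% of all windows. These shares describe letters and say nothing of binding.

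The called differences of these genes were nearly all rises, each by less than 1 on the log2 scale. A call needed a limma p, adjusted by Benjamini-Hochberg over all 10543 items, under 0.05, and a difference in log2(intensity + 1) of at least 0.5. Of 495 member comparisons (33 genes in 15 ligand windows), 42 (8.48%) were called higher and 1 (0.202%) lower, and the largest difference was 0.87 in size. Over all items in the same 15 windows, 8.56% were higher and 12.1% lower. The members' share of higher calls was thus near that of all items, and their share of lower calls was below it. Among the 7999 items above the floor on all arrays, as 32 members were, the share of higher calls was somewhat larger in every window. In the middle window it was 15.8% with Lps and 10.2% with Pam. The rises came from 10 genes: Psma5, Psma6, Psmb5, Psmb6, Psmc4, Psmd1, Psmd3, Psmd5, Psmd7 and Psmd11. The other 23 members were called in no window. The lone fall was that of Psmd5, which also rose in other windows.

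**Figure D1:**
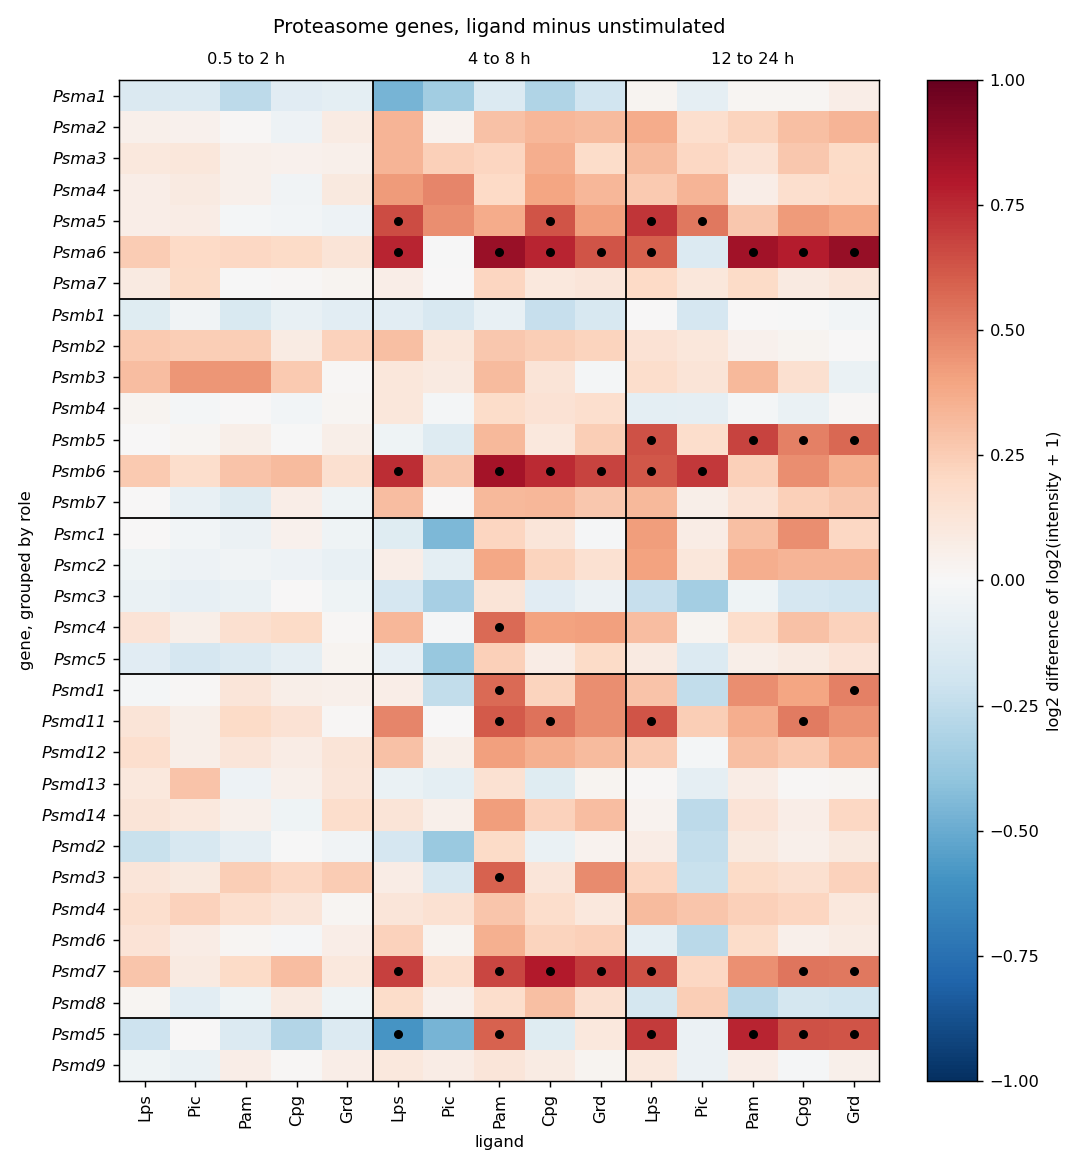
Log2 difference from the 8 unstimulated arrays for the 32 proteasome members (rows, grouped by role as alpha ring, beta ring, ATPases, non-ATPases and chaperones) in the 5 ligands and 3 time windows (columns). Dots mark the 43 called differences. None lies in the early window, and the rows of Psma6 and Psmd7 hold the most.

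In the early window no member was called with any ligand. Over all items, higher and lower calls there made up 4.81% and 7.21% with Lps, 3.09% and 4.43% with Pic, 4.94% and 7.7% with Pam, 4.64% and 5.46% with Cpg, and 3.1% and 2.82% with Grd. The members' medians lay between 0.01 and 0.06, and those of all items between -0.04 and -0.01. With background shares this low, a count of 0 among 33 genes says little. By the adjusted p alone, 10 members were above and 4 below with Lps, and 10 and 4 with Pam. At 0.5 h the log2 difference of Psmb3 was 0.84 with Pic, 0.65 with Lps, 0.46 with Pam, 0.41 with Grd and 0.37 with Cpg. That of Psmb2 was 0.60 with Pic, 0.55 with Grd, 0.51 with Lps, 0.44 with Pam and 0.08 with Cpg. The 0.5 h arrays lay in plate column 1 for all ligands but Cpg, whose arrays lay in column 10.

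From 4 to 8 h, Pam called the most members on the values as deposited. With Pam, 8 of 33 members (24.2%) were higher and 0 lower, where 9.03% of all items were higher and 13.8% lower. With Cpg, 5 members (15.2%) were higher and 0 lower, beside 12% and 20.3% of all items. With Lps, 4 members (12.1%) were higher and 1 (3.03%) lower, beside 14.2% and 25%. With Grd, 3 members (9.09%) were higher and 0 lower, beside 10.5% and 15.5%. With Pic, 0 members were called, beside 11.4% of all items higher and 17% lower. On these values the members' share of higher calls was above that of all items with Pam and near or below it with the other ligands, while their share of lower calls was below that of all items with each ligand. Without the 0.5 threshold, the adjusted p alone was under 0.05 for 28 members above and 1 below with Pam, and for 6 above and 10 below with Pic. The members' median log2 difference was 0.29 with Pam, 0.22 with Cpg, 0.19 with Grd, 0.11 with Lps and 0.003 with Pic, while that of all items lay between -0.11 and -0.03. This comparison turned after centring of every array on its median. Lps then called 10 members higher (30.3%), beside 19% of all items higher and 17% lower. Cpg called 9 (27.3%), beside 15.1% and 14.2%, and Grd 8 (24.2%), beside 12.8% and 12%. Pam called 8 (24.2%), beside 11.2% and 11.7%, and Pic 2 (6.06%), beside 13.9% and 11.8%. The fall with Lps was no longer called. The members' share of higher calls was then above that of all items with each ligand but Pic.

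From 12 to 24 h, members were called higher with all 5 ligands and lower with none. With Lps, 7 members (21.2%) were higher and 0 lower, beside 11.6% and 14.1% of all items. With Cpg, 5 members (15.2%) were higher and 0 lower, beside 9.49% and 11.6%. With Grd, 5 members (15.2%) were higher and 0 lower, beside 9.63% and 11.1%. With Pam, 3 members (9.09%) were higher and 0 lower, beside 8.33% and 9.88%. With Pic, 2 members (6.06%) were higher and 0 lower, beside 11.7% and 15.8%. Medians of the members were 0.25 with Lps, 0.2 with Grd, 0.19 with Pam, 0.17 with Cpg and 0.03 with Pic. The unstimulated array at 24 h bore on these counts. Without it, the higher calls fell to 2 members with Cpg, 3 with Grd and 1 with Pic. For Grd this was not particular to that array. The count was also 3 without the unstimulated array at 6 h or at 12 h, without 1 Grd array at 12 h, or without the 24 h time. The shares of all items called in these refits are not given. With Lps they stayed at 7. With the unstimulated arrays' own change over time taken into account, Grd called 9 members higher (27.3%, beside 11.2% of all items), Lps 8 (24.2%, beside 13.1%), Cpg 8 (24.2%, beside 11.2%) and Pam 6 (18.2%, beside 9.98%). Pic called 2 (6.06%, beside 11.9%) in that setting. After centring, Lps and Cpg each called 7 (21.2%), beside 12.3% and 10.4% of all items higher. Grd then called 5 (15.2%, beside 9.93%), Pam 3 (9.09%, beside 8.71%) and Pic 2 (6.06%, beside 13.7%). Which ligand called the most members late thus changed with the setting.

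Genes that mark the dendritic cells and other myeloid cells also differed between the windows. The summed intensity of the dendritic genes was 25138 to 27944 over the unstimulated arrays. It was 18129 to 24787 with Grd and 20289 to 24852 with Cpg in the late window, below every unstimulated array. Late with Lps, Pam and Pic it overlapped the unstimulated arrays. The brightest dendritic genes in unstimulated cells were Cd74, H2-Ab1 and H2-Aa, and the list did not move as one. Over all arrays Cd86 reached 3049, against at most 943 in unstimulated cells, and Zbtb46 reached 183, against at most 45. No array exceeded the unstimulated maximum of H2-Ab1, H2-Aa, Itgam or Csf2rb. The summed intensity of 5 neutrophil genes was 4872 to 7750 over the 8 unstimulated arrays, and 1130 to 4202 over the late arrays of Lps, Pam, Cpg and Grd, so these groups did not overlap. With Pic the late arrays gave 3663 to 5880. The middle arrays gave 6588 to 8637 with Pic and 3878 to 5184 with Pam. The summed intensity of 4 macrophage genes was 4797 to 7043 in unstimulated cells and 5518 to 11090 over the late arrays of Lps, Pam, Cpg and Grd. It was 3358 to 4381 over the middle arrays of Pam, below every unstimulated array. The early arrays of Pic (4160.2 to 4634.7) and Grd (4365.4 to 4696.5) also lay below every unstimulated array. The macrophage genes did not move as one. Over all arrays Adgre1 reached 6822, against at most 1666 in unstimulated cells, while no array exceeded the unstimulated maximum of Csf1r, 3114. The part of these shifts in the rises of proteasome genes was not tested.

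The alpha ring gave the largest rise of all members, that of Psma6, and a second gene called with 3 ligands, Psma5. The other alpha genes, Psma1, Psma2, Psma3, Psma4 and Psma7, were called in no window. In unstimulated cells Psma6 ranged from 1658 to 2537 with a median of 2366 over 8 arrays. In the middle window it ranged from 3440 to 4076 with Lps (median 3808), from 3824 to 4229 with Pam (4037), from 3536 to 3954 with Cpg (3787) and from 3180 to 3682 with Grd (3457). With Pic it ranged from 2086 to 2422 (2141). All middle arrays of the first 4 ligands thus lay above every unstimulated array, and those of Pic lay inside the unstimulated range. Log2 differences in the middle window were 0.76 with Lps, 0.86 with Pam, 0.76 with Cpg and 0.63 with Grd (SE 0.05 each, 6 arrays each; adjusted p from 9.4e-21 to 1.6e-15), against -0.01 with Pic (adjusted p = 0.96). Late, Psma6 stood at 0.87 with Grd, 0.84 with Pam, 0.78 with Cpg and 0.60 with Lps, and at -0.14 with Pic (adjusted p = 0.018).

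Psma5 rose with Lps in the middle (0.65) and late window (0.72), with Cpg in the middle window (0.63) and with Pic in the late window (0.53). It is the alpha gene called with Pic. Without 12 h the late Pic value was 0.46 and no longer called. Psma4 reached 0.49 with Pic and 0.43 with Lps in the middle window, below the threshold. Psma1 went the other way, at -0.46 with Lps in the middle window, and was not called either.

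Among the beta genes, 2 of the catalytic subunits rose, Psmb6 with calls from the middle window on and Psmb5 with calls in the late window, and the third, Psmb7, was called in no window. The non-catalytic Psmb1, Psmb2, Psmb3 and Psmb4 were called in no window. Psmb6 ranged from 853 to 1447 in unstimulated cells, with a median of 1332. In the middle window its arrays lay between 1744 and 2297 with Lps (median 2089), between 2117 and 2291 with Pam (2198), between 1976 and 2199 with Cpg (2032) and between 1805 and 2066 with Grd (1977). With Pic they lay between 1406 and 1631 (1456). Every middle array of the first 4 ligands was above the highest unstimulated array, while 3 of 6 Pic arrays were. Log2 differences were 0.84 with Pam, 0.74 with Cpg, 0.73 with Lps and 0.67 with Grd (SE 0.06, adjusted p from 2e-18 to 5.1e-15), and 0.27 with Pic, which was under the threshold (adjusted p = 5e-05).

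The course of Psmb6 differed between ligands at the late times. With Pam its 2 arrays read 2275 and 2233 at 6 h, 1879 and 1818 at 12 h, and 1262 and 1210 at 24 h, which is inside the unstimulated range. With Lps they read 2297 and 2256 at 8 h and 1741 and 1896 at 24 h. With Pic they read 1562 and 1631 at 8 h, 2185 and 2142 at 12 h, and 1770 and 1721 at 24 h. At 12 h Psmb6 was thus higher with Pic than with Pam, the reverse of 6 h. Its late log2 difference was 0.70 with Pic, 0.62 with Lps and 0.24 with Pam (not called), and Pic was above Pam by 0.46 (SE 0.06; the test of Pic minus Pam gave an adjusted p of 4.7e-09).

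Psmb5 ranged from 1065 to 1446 in unstimulated cells, with a median of 1338. In the middle window its arrays lay between 1187 and 1343 with Lps and between 1093 and 1390 with Pic, inside that range. With Pam they lay between 1438 and 1795 and with Grd between 1443 and 1623, and 5 of 6 arrays of each were above every unstimulated array (0.33 and 0.24, under the threshold). With Cpg they lay between 1279 and 1622. Late arrays lay between 1720 and 2299 with Lps, 1998 and 2200 with Pam, 1738 and 2165 with Grd, 1553 and 2003 with Cpg (4 arrays) and 1304 and 1641 with Pic. With Lps, Pam and Grd every late array lay above every middle array of the same ligand. Late log2 differences were 0.68 with Pam, 0.63 with Lps, 0.58 with Grd (SE 0.04 each) and 0.50 with Cpg (SE 0.05), all called, and 0.18 with Pic (adjusted p = 8.1e-05, under the threshold). The Cpg value was at the edge: it was 0.46 with the plate column as a block and 0.44 without 24 h. With Lps the 2 arrays read 1343 and 1280 at 8 h, 1776 and 1720 at 12 h, and 2299 and 2081 at 16 h.

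Psmb7 ranged from 1309 to 1812 in unstimulated cells, with a median of 1718. Its largest log2 difference was 0.34 with Cpg in the middle window, where the 6 arrays lay between 1889 and 2384, above every unstimulated array (SE 0.06, adjusted p = 5.8e-07). With Pic it differed by 0.01 in the middle window. Psmb7 thus shifted by less than the size a call required.

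**Figure D2:**
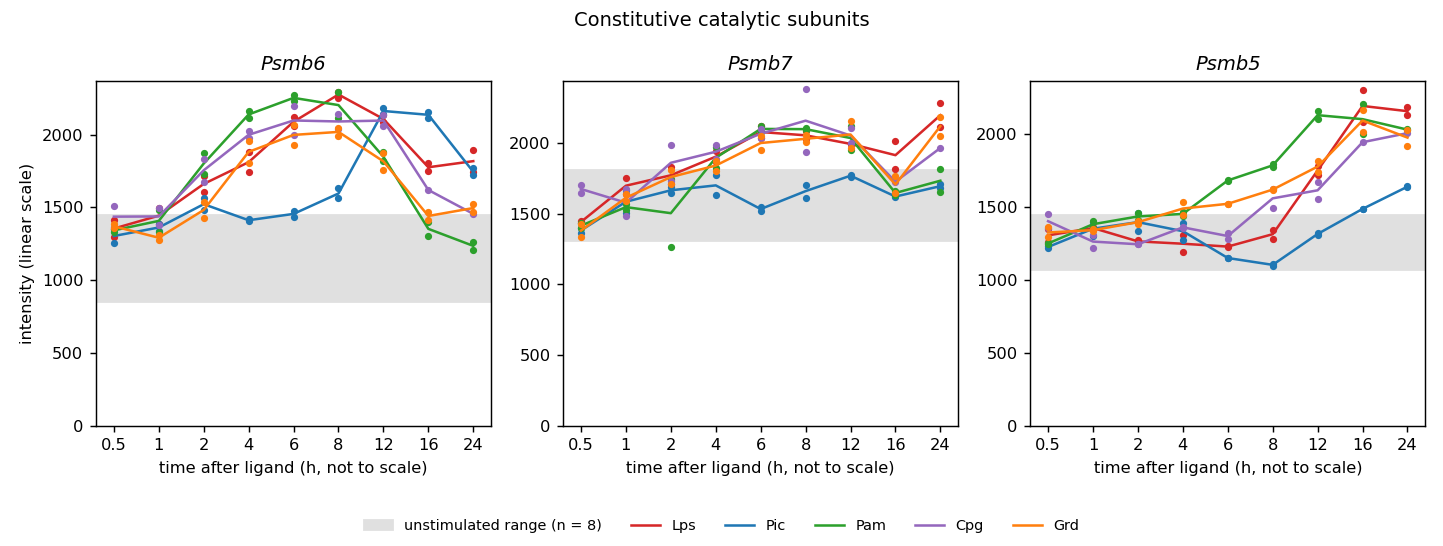
Intensity (linear scale, from 0) of the catalytic subunits Psmb6, Psmb7 and Psmb5 by time after ligand, in hours at equal spacing. Points are single arrays, lines join the means of each time, and the grey band is the range of the 8 unstimulated arrays. Psmb6 peaked at 6 to 8 h with Lps and Pam and at 12 h with Pic, while Psmb5 was highest at 12 h or later with every ligand.

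Psmb3 had the largest early difference of all members, 0.44 with Pic and 0.44 with Pam, under the threshold. At 0.5 h with Pic its 2 arrays read 2401 and 2376, against 1076 to 1573 in unstimulated cells. A second probe set of Psmb3 gave 0.01 in both comparisons, so the 2 probe sets disagree and the early value rests on 1 of them. One Pam array at 2 h stood apart from its replicate, with Psmb3 at 2683 against 1477 and Psmb7 at 1262 against 1746.

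The ATPases had 1 call among them. Of Psmc1, Psmc2, Psmc3, Psmc4 and Psmc5, 1 gene was called in 1 comparison: Psmc4, whose ATPase belongs to the ring that unfolds substrates, rose with Pam in the middle window. Its 6 arrays lay between 889 and 1075 (median 984), against 504 to 771 (median 687) in unstimulated cells, without overlap. The log2 difference was 0.57 (SE 0.05), and with Pic it was -0.01, not called. A second probe set of Psmc4 gave 0.42 with Pam, and the mean of both gave 0.49, so the call was lost there. Psmc1 and Psmc5 stood at -0.45 and -0.38 with Pic in the middle window and at 0.21 and 0.24 with Pam. The median of the 5 genes in that window was -0.33 with Pic and 0.24 with Pam.

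Among the 11 non-ATPase genes, 4 rose in some window and 7 in none. Psmd7, a lid subunit that sits beside the deubiquitinase Psmd14, was called in 7 windows. In unstimulated cells it ranged from 182 to 292, with a median of 244. In the middle window its arrays lay between 379 and 476 with Cpg (median 413), 354 and 425 with Grd (392), 332 and 432 with Pam (382), 366 and 428 with Lps (379) and 230 and 308 with Pic (273). The first 4 ligands did not overlap the unstimulated arrays, and Pic did. Log2 differences were 0.80 with Cpg, 0.70 with Grd, 0.69 with Lps and 0.67 with Pam (SE 0.08, adjusted p from 5e-13 to 1.9e-10), and 0.17 with Pic (adjusted p = 0.052). Late values were 0.64 with Lps, 0.54 with Cpg and 0.53 with Grd. A dimmer second probe set, between 46 and 88 in intensity, had the same sign in all 7 and was called with Pam in the middle window. With the mean of both probe sets 4 of the 7 calls were lost.

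Psmd11, a lid scaffold subunit, rose with Pam (0.62) and Cpg (0.54) in the middle and with Lps (0.63) and Cpg (0.52) in the late window. Its second probe set, between 269 and 672 in intensity, gave 0.30, 0.20, 0.41 and 0.16 in these comparisons and was called in none. With the mean of both, 3 of the 4 calls were lost (0.46, 0.37 and, for Cpg late, 0.34). Psmd1, the large scaffold of the base, rose with Pam in the middle (0.57) and with Grd in the late window (0.50). The latter lies at the threshold and was 0.47 without 24 h. Psmd3, a lid subunit, rose with Pam in the middle window (0.59) and stood at -0.16 with Pic. Psmd14, the deubiquitinase of the lid, reached 0.42 with Pam in the middle window and was not called, as was the ubiquitin receptor Psmd4 at 0.28.

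Psmd5, a chaperone that holds parts of the base before assembly, had the widest range of all members, 4.00-fold between its lowest and highest array. Unstimulated arrays lay between 262 and 406, with a median of 324. With Lps the 2 arrays read 317 and 326 at 0.5 h, 215 and 199 at 2 h, 153 and 153 at 4 h, 224 and 222 at 6 h, 539 and 473 at 12 h, and 586 and 576 at 24 h. The gene thus went below and then above every unstimulated array with the same ligand. This gave a log2 difference of -0.59 in the middle window, a fall (SE 0.06, adjusted p = 4.7e-13) and a rise of 0.70 in the late window (adjusted p = 2.3e-15). The fall rested on 4 h: without it the value was -0.35 and not called.

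With Pam, Psmd5 rose already in the middle window, to between 451 and 531 (0.59, SE 0.06, adjusted p = 1.3e-12), and stood at 0.76 in the late window. With Cpg and Grd it was called in the late window (0.64 and 0.63). With Pic it lay between 210 and 271 in the middle window (-0.46, under the threshold) and at -0.06 in the late window. The difference between Lps and Pam in the middle window was -1.18 (SE 0.06, adjusted p = 6.3e-23). The other chaperone gene, Psmd9, stayed between -0.07 and 0.12 in all windows and was not called.

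**Figure D3:**
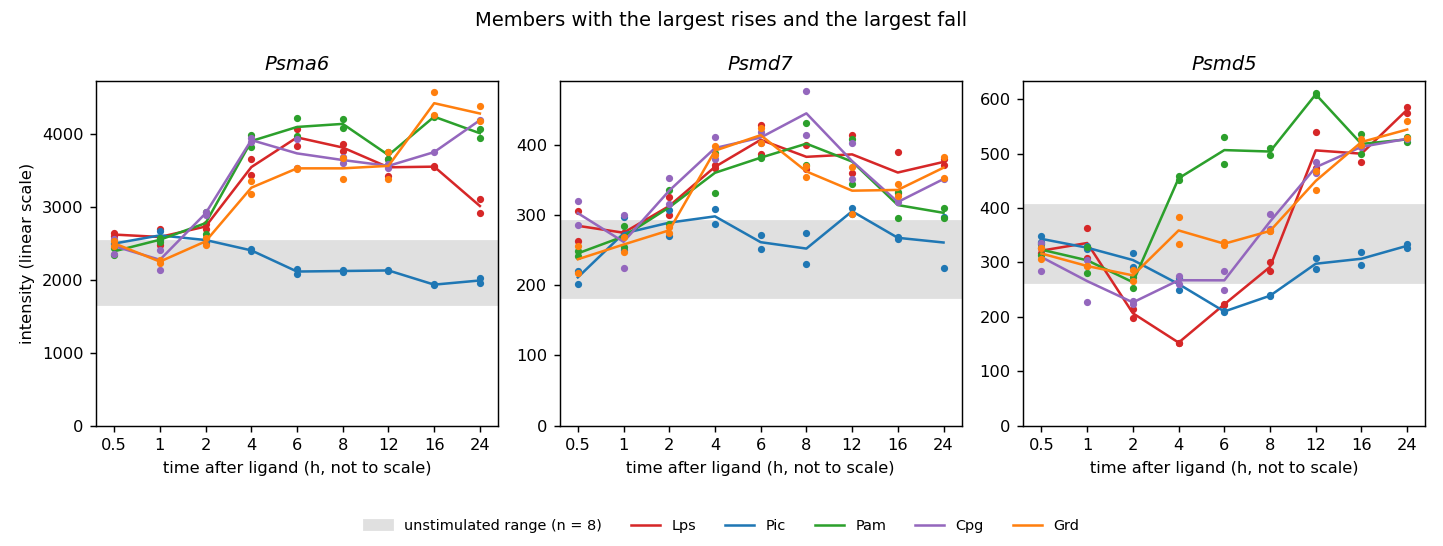
Intensity (linear scale, from 0) of Psma6, Psmd7 and Psmd5 by time after ligand, in hours at equal spacing. Points are single arrays, lines join the means, and the grey band is the range of the 8 unstimulated arrays. Psma6 and Psmd7 were called higher with all ligands but Pic. With Pic the mean of Psmd7 reached 305 at 12 h, a log2 difference of 0.35. Psmd5 with Lps dropped to 153 at 4 h and then rose to 586 at 24 h.

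The ligands were next compared with each other, which leaves the unstimulated arrays out of the difference. A gene was said to differ when the moderated F test over the 5 ligands had an adjusted p under 0.05 and the highest and lowest ligand means were at least 0.5 apart. In the middle window 11 members (33.3%) differed, beside 37.9% of all items, and in the late window 5 (15.2%), beside 32.7%. The members' shares lay below those of all items. On the values as deposited, Pam was highest for 10 of the 11 and Pic lowest for 10. The exceptions were Psmd7, highest with Cpg, and Psmd5, lowest with Lps. The shares of all items with Pam highest or Pic lowest are not given, so these counts and those below have no background beside them. The middle median of all items was also highest with Pam (-0.03), against -0.10 with Pic and -0.11 with Lps.

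On the values as deposited, the widest middle ranges after Psmd5 were those of Psma6 (0.87), Psmd1 (0.82) and Psmd3 (0.75), each from Pic to Pam. For Psmd1 the test of Pic minus Pam gave -0.82 (SE 0.05, adjusted p = 6e-20), one of 10 pairs of ligands compared. On the same values, over the 32 proteasome members, called or not, Pam was highest for 24 and Pic lowest for 22 in the middle window. Late, Pic was lowest for 22 and Lps highest for 13. With centred arrays the members' middle median was 0.36 with each of Cpg and Pam, 0.30 with Lps, 0.29 with Grd and 0.11 with Pic. Rankings of Pam above the other ligands are therefore given for the deposited values only. The 5 members that differed in the late window were Psma6 (1.01, Grd over Pic), Psmd5 (0.82, Pam over Pic), Psmd1 (0.75, Grd over Pic), Psmd8 (0.52) and Psmb5 (0.50, Pam over Pic). Psmd8 ran against the others, highest with Pic and lowest with Pam. Without 1 of the Pam arrays at 12 h, 3 members differed in the late window.

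**Figure D4:**
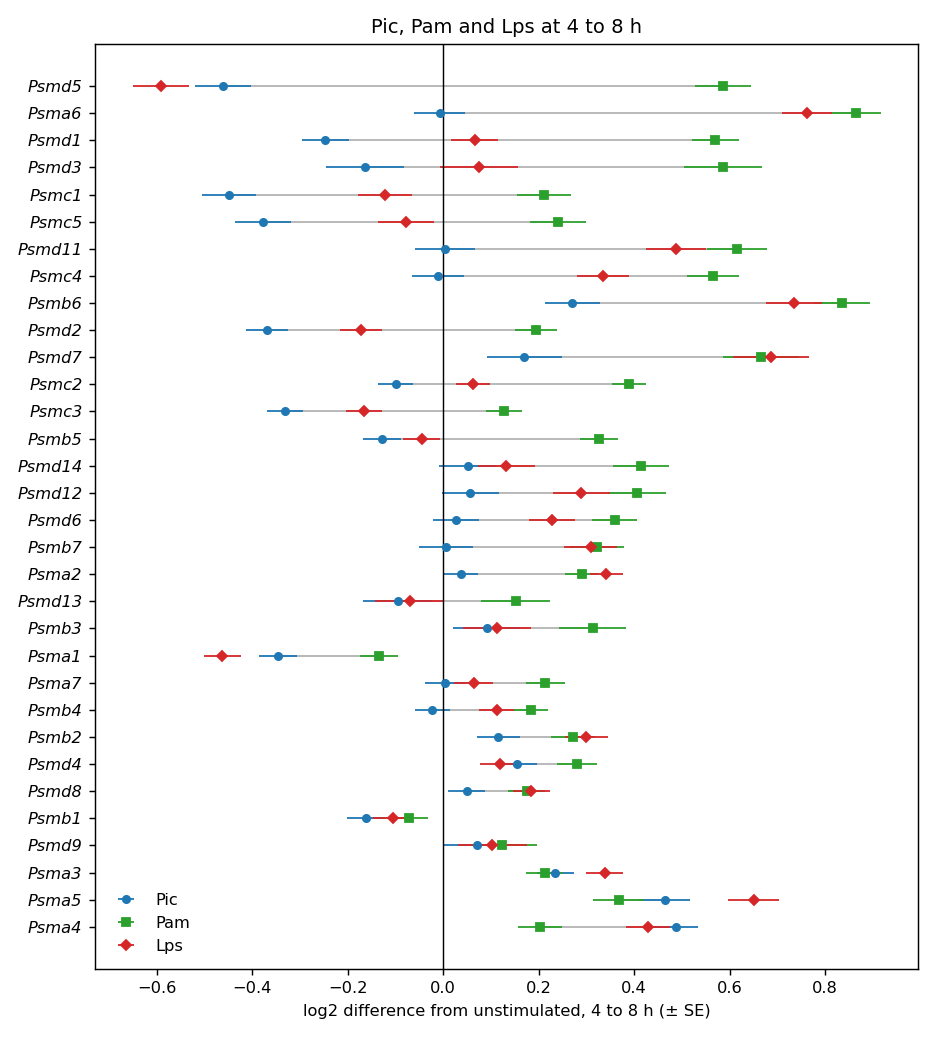
Log2 difference from unstimulated cells in the middle window (4 to 8 h) for the 32 proteasome members with Pic (circles), Pam (squares) and Lps (diamonds), with the standard error of each, ordered by the distance from Pic to Pam. Psmd5, Psma6 and Psmd1 are the farthest apart, and Psma3, Psma4 and Psma5 are higher with Pic than with Pam.

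The unstimulated arrays themselves moved over the day. Of the 33 members, 30 had a fitted change below 0 from 0 to 24 h, with a median of -0.30, while 46.6% of all items were below 0 and their median was 0. Called lower were 2 members, Psmd12 (-0.60, SE 0.13, adjusted p = 0.040) and Psmd13 (-0.54, SE 0.12, adjusted p = 0.042), beside 5.31% of all items. Called higher were 0 members, beside 3.97% of all items. For 28 members the lowest of the 8 arrays was that at 24 h, a count with no share of all items beside it. Psmb6 read 1366 at 0 h, 1088 at 12 h and 853 at 24 h, and Psma6 read 2503, 2112 and 1658.

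Place on the plate ran with time in these arrays. The arrays at 6, 12 and 24 h lay in plate column 12, and the other 5 in columns 10 and 11. In 18 of 33 members all 3 arrays of column 12 were below the other 5, which held for 12.8% of all items. With the column as a block, 27 members were still below 0 with a median of -0.27, and 0 were called by limma (4 had an unadjusted p under 0.05). Of all 10543 items, 0 were called with this block either (1128 had an unadjusted p under 0.05), 4762 were below 0 and the median was 0, so the lost calls say nothing of the members. Time and column could therefore be separated only in part. For Lps, Pic, Pam and Grd every time point sat in its own column, so there time and column cannot be told apart. Their arrays lay in columns 1 to 9, and all unstimulated arrays in columns 10 to 12. The differences of these ligands from unstimulated cells therefore cannot be told apart from column. Each of these ligands also had its own rows of the plate, so differences among them cannot be told apart from row.

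**Figure D5:**
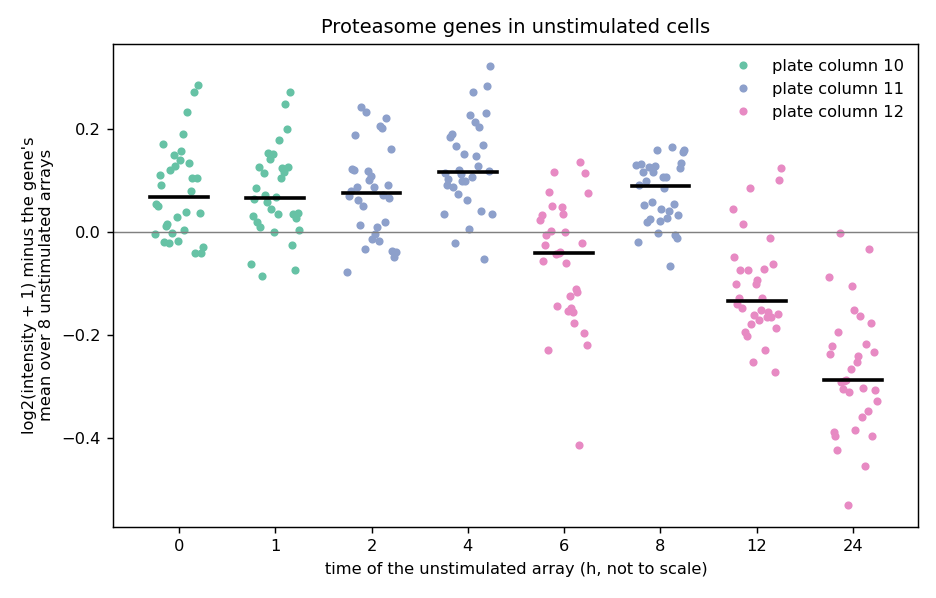
Log2(intensity + 1) of the 32 proteasome members in each of the 8 unstimulated arrays, minus the mean of the gene over these arrays. Points are genes, bars are their medians, colours mark the plate column, and times in hours are at equal spacing. The medians are 0.07 at 0 h, -0.13 at 12 h and -0.29 at 24 h, and the 6 h array, in column 12, lies below the 8 h array, in column 11.

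The immune subunits were highest with Pic and Lps in the middle and late windows. Psmb9, in place of Psmb6, ranged from 1458 to 2092 with Pic in the middle window and from 564 to 722 with Pam. Its log2 difference was 1.36 with Pic and 1.37 with Lps, both called, and -0.11 with Pam (adjusted p = 0.21). Psmb10, in place of Psmb7, rose by 1.09 on the log2 scale with Pic in the late window and fell by 0.73 with Pam. Psmb8, in place of Psmb5, rose with Pic (0.71) and Lps (0.51) in the late window and stood at -0.14 with Pam, where Psmb5 stood at 0.68. With Pam none of the 3 immune subunits was called higher in any window. All of these values share the same unstimulated arrays.

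Of 48 other genes listed for the pathway, Psmb8, Psmb9 and Psmb10 among them, 30 could be tested. At 4 to 8 h the higher and lower counts were 6 and 5 of 30 with Lps, beside 14.2% and 25% of all items. They were 3 and 3 with Pic (beside 11.4% and 17%) and 5 and 1 with Pam (9.03% and 13.8%). With Cpg they were 5 and 3 (12% and 20.3%), and with Grd 7 and 2 (10.5% and 15.5%). The immune subunits gave 2 of the higher calls with each of Lps, Pic and Cpg, and 1 with Grd. At 12 to 24 h the counts were 8 and 0 with Lps (beside 11.6% and 14.1%) and 6 and 4 with Pic (11.7% and 15.8%). They were 2 and 1 with Pam (8.33% and 9.88%), 4 and 0 with Cpg (9.49% and 11.6%) and 4 and 0 with Grd (9.63% and 11.1%). Here the immune subunits gave 3 of the higher calls with each of Lps and Pic, and 1 with Cpg. Up to 4 genes a comparison are named, by size. Psmg2, which pairs with Psmg1 as a chaperone of the alpha ring, fell in the middle window with all 5 ligands, from -0.73 with Pam to -1.18 with Lps. Its middle arrays with Lps lay between 25.6 and 41.5, near the floor, against 56.7 to 89.6 in unstimulated cells. Ubqln2, a shuttle for ubiquitin-tagged proteins, fell with Pic (-1.04), Cpg (-0.75) and Grd (-0.59) in the middle window. With Pic, Usp14, a deubiquitinase that docks on the 19S particle, and Psmg1 fell in the late window (-0.89 and -0.86).

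Psme3, a nuclear activator of the core, rose late with Grd (0.64) and Cpg (0.58). Among the small Maf genes, Maff rose in the early window with every ligand, from 1.39 with Pic to 2.84 with Pam. It was the only one of the 7 regulators tested that was called early. Nfe2l1 and Nfe2l2 were among the 7 and were not called there. The early median of the 7 lay between -0.08 with Lps and 0.19 with Grd. Mafk rose in the middle window with Pic (1.35), Lps (1.33) and Cpg (0.88). Mafg rose with Pam in the middle window (0.77), and late with Pam (0.91), Grd (0.85), Lps (0.75) and Cpg (0.73).

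The members did not form 1 tight group. Across the 46 group means, the correlation of each proteasome member with the mean of the other members had a median of 0.576, and 19 of 32 were over 0.5. It was highest for Psmd11 and Psmc2 (0.871 each) and lowest for Psmb3 (-0.0626) and Psmd8 (-0.0205). Outside the members, the named genes most like the members' mean were 1810037I17Rik (r = 0.893), Cops5 (0.892), Utp11 (0.891), Ctu1 (0.889), Tmem167 (0.882), Msantd3 (0.88), Cav2 (0.871), Rpl7l1 (0.87), Denr (0.868) and Mllt11 (0.866). These are descriptions over groups that share arrays, plate and normalization.

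The culture was checked against markers. The dendritic genes Itgax, H2-Ab1, H2-Aa, Cd74 and Csf2rb were bright in unstimulated cells, with medians from 2223 to 7931, while Flt3 and Zbtb46, which mark conventional dendritic cells, lay between 26 and 45. Macrophage genes were also well above the floor, with a median of 2257 for Csf1r. Among the neutrophil genes, S100a8, S100a9 and Ngp had medians of 2383, 3118 and 1030. Elane (28.1 to 37) and Mpo (20 to 34.8) lay near the floor in unstimulated cells. The B cell, NK cell and stromal markers measured were at 20 on all arrays, and the T cell marker Cd3e reached 26.9. Over all probe sets the median intensity of an array was 48.75 to 59.5, and precision is limited by how many arrays there were. The 2 arrays of a time differed, as the median over groups of the absolute log2 difference, by 0.04 to 0.13 depending on the member. The labels name no separate cultures for them, so the p-values cover only the spread among these arrays, possibly a technical one.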

How the data were processed

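The deposited intensity values of one-colour Affymetrix mouse arrays, on a linear scale with a floor of 20, were used as the authors gave them. The submitters' processing notes name RMA without a version, a method that by design corrects background, quantile-normalizes and summarizes probes. The 96 arrays held 18858 probe sets. The platform annotation gave 1 symbol for 15044, several for 257 and none for 3557. The 4409 probe sets never above the floor were dropped, and the probe set with the highest mean stood for a gene (8 members had others). Values were taken as log2(intensity + 1), so the changes of dim genes are understated, and fitted with limma 3.58.1 (R 4.3.3, lmFit and eBayes) over 45 ligand and time groups and 1 unstimulated group, with 50 residual degrees of freedom. Window contrasts averaged the time groups; the tests are two-sided with Benjamini-Hochberg adjustment over all 10543 items. Time in unstimulated arrays was fitted as log2(hours + 1). The scripts were tested on simulated data. Members and lists were chosen with earlier results of these data known. All values were given for the catalytic subunits and for the called members with the largest rises and falls. Alternatives were a pseudocount of 16, centred arrays, the mean of probe sets, no filter, a replicate block, a time trend, plate columns as blocks, and each array or time left out.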

Additional observations from a re-analysis of the deposited data

Results flagged for a closer look

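Among the 8 unstimulated arrays, that at 24 h stood far below the others for 2 members: the gap to the nearest array was 0.536 of the whole range for Psma2 and 0.594 for Psmd9. Chance alone gives such a gap in about 1 of 20 groups, and 32 members were looked at.

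The response differed between ligands, by the F test among them, for 11 members in the middle window. The distance between the highest and lowest ligand on the log2 scale was 1.18 for Psmd5, 0.87 for Psma6, 0.82 for Psmd1, 0.75 for Psmd3, 0.66 for Psmc1, 0.62 for Psmd7, 0.62 for Psmc5, 0.61 for Psmd11, 0.58 for Psmc4, 0.56 for Psmb6 and 0.56 for Psmd2. In the late window it was 1.01 for Psma6, 0.82 for Psmd5, 0.75 for Psmd1, 0.52 for Psmd8 and 0.50 for Psmb5.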

How the results depend on the processing

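No called member difference changed sign under an alternative. With arrays centred on their medians, which shifted the median of all items by up to 0.19 (Lps, middle window), Lps called 10 members higher, Cpg 9, Grd 8 and Pic 2 in the middle window, Pic and Pam called 1 each early, and the fall of Psmd5 with Lps was -0.40, leaving 0 lower. With the trend of the unstimulated arrays removed, members higher were 1 with Pic in the middle window, and 6 with Pam, 8 with Cpg and 9 with Grd in the late window. A pseudocount of 16 left 3 members higher with Grd late, and the mean of probe sets left 3 with Cpg late. Without the filter, 0 members were lower over time in unstimulated cells, as with the plate column as a block (an alternative chosen after seeing the data). Of the 43 called values, 3 fell under the threshold with the pseudocount of 16, 1 with centring, 8 with the mean of probe sets, and 1 of 10 (Psmb5, Cpg late, 0.46) with the plate column. The cause was not tested.

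Leaving out 1 array or time gave ranges of members higher of 2 to 5 (Cpg late), 3 to 5 (Grd late), 3 to 5 (Grd middle), 4 to 6 (Lps middle), 1 to 2 (Pic late), 0 to 2 (Pic middle), 0 to 1 (Pic early) and 0 to 1 (Pam early). Members lower ranged from 0 to 1 (Lps middle), 0 to 1 (Pic middle) and 0 to 3 (unstimulated cells over time), and members differing among ligands late from 3 to 5. Replicate numbers did not pair the arrays: over 903 pairs of groups the correlation of deviations had a median of 0.01 and ranged from -0.33 to 0.35. With the replicate block, 8 members were higher with Pam in the middle window, and the other 31 counts fitted with it kept within 1.5 times their value. The floor limits Psmc3ip and other dim genes.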
